A study of Mus musculus with 6 samples.

Results

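The expression of 10 genes of profibrotic signalling was followed in mouse liver: the transforming growth factor beta (TGF-beta) ligands Tgfb1, Tgfb2 and Tgfb3, connective tissue growth factor (Ctgf, now named Ccn2), the platelet-derived growth factor (PDGF) ligands Pdgfa and Pdgfb, the PDGF receptors Pdgfra and Pdgfrb, osteopontin (Spp1) and thrombospondin 1 (Thbs1). They were chosen by gene name, and every probe carrying one of these names was taken, which gave 15 of the 41174 probes on the array and 10 of its 27670 gene names. All tested probes of the 10 genes had a higher signal in livers of mice on the choline- and folate-deficient diet than in control livers. The rise ranged from 1.75-fold for Tgfb1 to 15.9-fold for Spp1. Thbs1, not well above background in controls, was 5.53-fold higher with its control values raised to a floor, defined below.

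TGF-beta is secreted bound to its own propeptide and stored in the matrix, and integrins, proteases and thrombospondin 1 can release the active cytokine. The active form binds a receptor pair that phosphorylates SMAD proteins, which enter the nucleus and switch on matrix genes. In injured liver, TGF-beta is the main inducer of collagen in hepatic stellate cells, and PDGF is their main growth signal. Osteopontin and CTGF are secreted matrix-associated proteins known for high levels in fibrotic liver.

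The animals were male C57BL/6J mice, an inbred strain, 8 weeks old when the diets began and 20 weeks old at death. The CFD group received, for 12 weeks, an iron-supplemented diet of defined amino acids with 0.17% methionine and neither choline nor folic acid, and the control group the same base with folic acid at 2 mg/kg, methionine at 0.4% and choline bitartrate at 0.3%. Iron supplementation and the amino acid base were therefore shared by both groups. Total liver RNA was labelled with Cy3 and hybridised to single-colour Agilent arrays, 3 for control livers and 3 for CFD livers. Replicates are numbered in the labels, which do not state whether each is its own animal, and the p-values therefore cover only the spread among these samples, part of which may be technical.

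Values are log2 signals relative to the 75th percentile of the same array, so that 0 is the level of that percentile. On each array, between 23141 and 30857 of 43379 spots were well above background, and none was saturated. Each of the 3 slides carried 1 control and 1 CFD liver of the same replicate number, scanned together. Of the 23482 probes tested, 22.1% were called higher and 27.6% lower in CFD livers (limma, Benjamini-Hochberg adjusted p below 0.05), and the median difference over all tested probes was -0.12 on the log2 scale. Scaling each array to its median in place of the 75th percentile moved that median to -0.33 and the split from 5193 higher and 6476 lower probes to 3984 and 8866.

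Of the 15 probes, 11 were tested, at least 1 for each of the 10 genes, because every array of 1 group or of both was well above background. All 11 were called higher and 0 lower, and on all 11 each CFD value lay above each control value. Among all tested probes, 26.6% separated in this direction. A probe had to be bright in only 1 group to be tested, and for Tgfb2, Pdgfb and Thbs1 that group was the CFD livers, so these 3 probes had passed because of their CFD values. On the CFD arrays, CFD 3 gave the highest value for 10 of the 11 probes, as it did for 54.8% of all probes called higher.

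**Figure D1:**
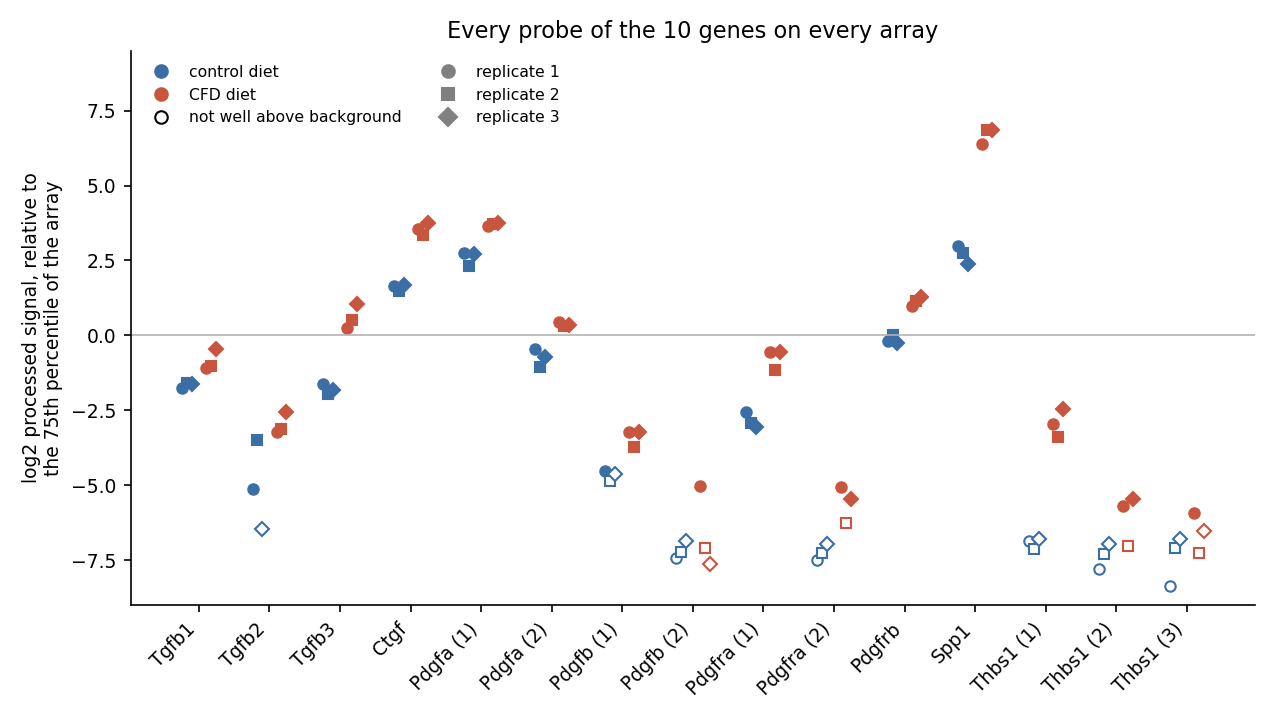
Each point is the log2 processed signal of 1 probe on 1 array, relative to the 75th percentile of that array (y axis), for the 15 probes of the 10 genes (x axis, probes of a gene numbered). Filled points were well above background and open points were not. The red CFD points lie above the blue control points for all 11 tested probes, and the 4 untested probes are open on every control array.

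Promoter sequence from RefSeq was used for 5 of the 10 genes, Tgfb1, Tgfb2, Pdgfa, Pdgfra and Spp1, and that of Tgfb3, Ctgf, Pdgfb, Pdgfrb and Thbs1 was not used here. For these 5 genes 7 windows were read, since Pdgfa and Spp1 each have 2 annotated starts. The stretches shown are the 250 bases before an annotated start, on build GRCm38.p6 and 5′ to 3′ on the strand of the gene. They are given for Spp1, whose tested difference was the largest with signal on every array, and for Tgfb1 and Tgfb2, a pair of ligands of 1 family whose promoters differ in composition. Capitals mark matches on either strand to GGGCGG (the core of SP1 sites), CAGAC (the core of SMAD sites) and TATAAA (the TATA box). The searches also covered TGANTCA (AP-1) and GGAATG (TEAD), with no match in these windows, and matches of different motifs did not overlap.
Spp1, chr5:104434861-104435110, plus strand: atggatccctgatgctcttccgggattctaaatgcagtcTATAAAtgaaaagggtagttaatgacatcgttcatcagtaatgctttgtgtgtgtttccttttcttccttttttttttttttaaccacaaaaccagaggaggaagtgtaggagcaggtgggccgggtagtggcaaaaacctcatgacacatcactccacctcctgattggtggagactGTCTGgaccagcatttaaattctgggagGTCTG
Tgfb1, chr7:25686752-25687001, plus strand: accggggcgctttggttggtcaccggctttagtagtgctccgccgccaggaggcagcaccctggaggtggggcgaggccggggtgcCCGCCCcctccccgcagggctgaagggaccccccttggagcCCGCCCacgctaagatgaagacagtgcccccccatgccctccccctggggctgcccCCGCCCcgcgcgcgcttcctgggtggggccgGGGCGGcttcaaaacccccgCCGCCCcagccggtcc
Tgfb2, chr1:186705990-186706239, minus strand: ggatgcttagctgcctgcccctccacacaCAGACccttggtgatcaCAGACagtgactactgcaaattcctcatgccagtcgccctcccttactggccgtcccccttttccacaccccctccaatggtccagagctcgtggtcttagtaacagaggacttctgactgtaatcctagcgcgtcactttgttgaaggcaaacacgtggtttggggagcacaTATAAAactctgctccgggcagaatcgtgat
The Tgfb1 window held 5 matches to GGGCGG and was 75.2% G or C, and it had no match to the other motifs. The Tgfb2 window, 53.6% G or C, held 2 matches to CAGAC and a TATAAA whose first base lay at -31 from the start. The Spp1 window shown, 43.6% G or C, held 2 matches to CAGAC, at -33 and -5, and a TATAAA at -211. The window of the other Spp1 start, chr5:104435942-104436191 and not shown, was 35.6% G or C and held 1 match to CAGAC and 0 to TATAAA. Among 32851 windows of this length, 42.2% held CAGAC, 32.7% GGGCGG, 12.6% GGAATG, 12.4% TATAAA and 6.7% TGANTCA. A match describes the letters and is not a measured binding site.

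The 3 TGF-beta ligands were higher in CFD livers, Tgfb3 with the smallest adjusted p and Tgfb2 with the largest. Tgfb1, the isoform made by many liver cells, was read by 10 spots at chr7:22478890-22478949 (plus strand, build mm7, to which all probe positions refer). Its log2 values were -1.77, -1.59 and -1.64 in controls 1 to 3 and -1.08, -1.04 and -0.45 in CFD livers 1 to 3. The groups did not overlap, and CFD 3 stood above the other CFD livers. Tgfb1 rose 1.75-fold (95% interval 1.28 to 2.40, log2 difference 0.81 ± 0.19 SE, n = 3 per group, limma adjusted p = 0.0125). The difference was 0.69, 0.56 and 1.18 within slides 1 to 3, and the limma adjusted p was 0.0219 with slide as a block.

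Tgfb3, the third isoform, was read at chr12:84058334-84058393 (minus strand). Its log2 values were -1.63, -1.96 and -1.84 in controls and 0.26, 0.52 and 1.04 in CFD livers. The lowest CFD liver lay 1.88 above the highest control. Tgfb3 rose 5.33-fold (95% interval 3.72 to 7.62, log2 difference 2.41 ± 0.22 SE, limma adjusted p = 0.000406), and the differences within slides were 1.88, 2.48 and 2.87.

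Tgfb2 was read at chr1:186149057-186149116 (minus strand) and was well above background in 2 of the 3 controls and in every CFD liver. Its log2 values were -5.13, -3.50 and -6.46 in controls and -3.22, -3.12 and -2.57 in CFD livers. The control livers spread widely (SD 1.48), control 3 was not well above background, and control 2 lay only 0.29 below the lowest CFD liver. The fitted rise was 4.18-fold (95% interval 1.36 to 12.8, log2 difference 2.06 ± 0.68 SE, limma adjusted p = 0.0412). Within slides the difference was 1.92, 0.38 and 3.90, and with slide as a block the limma adjusted p was 0.0616, above the threshold of 0.05. Tgfb2 also lost its call without control 1, control 3, CFD 1, CFD 2 or CFD 3, with limma adjusted p between 0.0751 and 0.12, and kept it without control 2, when it was 0.00581. Without control 3 the log2 difference was 1.35.

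To compare isoforms, the log2 value of Tgfb1 was subtracted from that of Tgfb3 on each array, which also removes the scaling. These differences were 0.14, -0.37 and -0.20 in controls and 1.33, 1.56 and 1.49 in CFD livers. Tgfb3 thus shifted relative to Tgfb1 by 1.60, with no overlap between groups (two-sided exact permutation p = 0.1, the smallest that 3 against 3 arrays can give). The same difference for Tgfb2 and Tgfb1 overlapped between groups, with a shift of 1.26 (two-sided exact permutation p = 0.4). These were 2 of 4 such pairs, chosen with their values known, and the adjusted exact permutation p was 0.2 for Tgfb3 and 0.4 for Tgfb2.

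Thbs1 encodes a matrix glycoprotein that can activate latent TGF-beta and that platelets also store. Its 1 tested probe, at chr2:117866887-117866946 (plus strand), was not well above background on any control array and was above it on every CFD array. The log2 values were -6.88, -7.13 and -6.81 in controls and -2.96, -3.40 and -2.47 in CFD livers. Thbs1 was 5.53-fold higher in CFD livers with its control values raised to a floor. On each control array this took the higher of the probe's own signal and the lowest signal of any probe well above background. The floor is not a strict detection limit. On control 2 it was a processed signal of 10.8, and Pdgfb, at 12.6, was not well above background there. The fitted log2 difference of 4.0 (limma adjusted p = 0.000113) is no bound either. Its control values were near background, and those of controls 2 and 3 were surrogate values set by the array software. The difference was 0.88 with the normexp background correction, which adds an offset of 50 to each signal (limma adjusted p = 0.00896). The remaining Thbs1 probes, at chr2:117863442-117863501 and chr2:117861824-117862004, were above background on 0 control arrays and on 2 and 1 CFD arrays, and their groups overlapped. Fitted without the filter on dim probes, they differed by 1.29 and 0.85 on the log2 scale (limma adjusted p = 0.124 and 0.347), so the Thbs1 call rests on 1 probe.

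Ctgf, a matrix-associated protein induced by TGF-beta, was read at chr10:24349402-24349461 (plus strand). Its log2 values were 1.64, 1.49 and 1.66 in controls and 3.54, 3.36 and 3.75 in CFD livers. Both groups were tight, and the gap between them was 1.69. Ctgf rose 3.86-fold (95% interval 3.05 to 4.89, log2 difference 1.95 ± 0.14 SE, limma adjusted p = 0.000193), and by 1.90, 1.87 and 2.09 on the log2 scale within slides.

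Both PDGF ligands were higher in CFD livers. Pdgfa, which forms PDGF-AA, had a pair of tested probes, both on the minus strand. The probe at chr5:137949185-137949244 read 2.74, 2.33 and 2.70 in controls and 3.63, 3.70 and 3.75 in CFD livers. The CFD livers were nearly equal and the spread was in the controls. On this probe Pdgfa rose 2.15-fold (95% interval 1.68 to 2.75, log2 difference 1.11 ± 0.15 SE, limma adjusted p = 0.0017). The probe at chr5:137951288-137951347 read -0.46, -1.05 and -0.71 in controls and 0.43, 0.33 and 0.34 in CFD livers, and its rise was 2.16-fold (limma adjusted p = 0.00262). Control 2 was the lowest control on both probes, so slide 2 gave the largest difference for Pdgfa, 1.38 on the first probe against 0.89 and 1.04 on slides 1 and 3.

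Pdgfb, which forms PDGF-BB, a strong mitogen of stellate cells, was read at chr15:80080840-80080899 (minus strand). Only 1 of 3 controls was well above background, with log2 values of -4.51, -4.85 and -4.64, and the CFD livers gave -3.24, -3.73 and -3.22. The groups did not overlap and the fitted rise was 2.41-fold (95% interval 1.79 to 3.25, log2 difference 1.27 ± 0.18 SE, limma adjusted p = 0.00212), with 1.27, 1.12 and 1.41 within slides. With the normexp correction the log2 difference was 0.36 and the call was lost (limma adjusted p = 0.152). A second Pdgfb probe, at chr15:80080029-80080088, was above background on 1 CFD array only and was not tested. Within arrays, Pdgfb minus Pdgfa shifted by 0.16 with overlapping groups (two-sided exact permutation p = 0.4, adjusted over the 4 pairs 0.4).

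Both PDGF receptors, tyrosine kinases of mesenchymal cells, were higher in CFD livers. Pdgfra, the receptor that binds every PDGF-A and PDGF-B dimer, was read by 10 spots at chr5:74616116-74616175 (plus strand). It gave -2.57, -2.94 and -3.08 in controls and -0.57, -1.15 and -0.55 in CFD livers. Every CFD liver lay at least 1.41 above every control. Pdgfra rose 4.30-fold (95% interval 3.00 to 6.17, log2 difference 2.10 ± 0.22 SE, limma adjusted p = 0.000665), with 2.00, 1.79 and 2.52 within slides, and the log2 difference was 1.38 with the normexp correction. A second probe, at chr5:74581841-74581900, was above background on 0 control and 2 CFD arrays and was not tested.

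Pdgfrb, the PDGF-BB receptor by which stellate cells and pericytes are recognised, was read at chr18:61474380-61474439 (plus strand). It gave -0.18, 0.01 and -0.25 in controls and 1.00, 1.15 and 1.28 in CFD livers. Both groups were narrow and apart. Pdgfrb rose 2.43-fold (95% interval 1.94 to 3.05, log2 difference 1.28 ± 0.14 SE, limma adjusted p = 0.000728), and by 1.17, 1.14 and 1.53 on the log2 scale within slides. Within arrays, Pdgfra minus Pdgfrb was -2.39, -2.95 and -2.82 in controls and -1.56, -2.30 and -1.83 in CFD livers, a shift of 0.82 with no overlap (two-sided exact permutation p = 0.1, adjusted 0.2).

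Spp1, the gene of osteopontin, a secreted phosphoprotein that binds integrins and CD44, had the largest difference among those of the 10 genes that were above background on every array. It was read by 10 spots at chr5:103631152-103631211 (plus strand). The log2 values were 3.00, 2.75 and 2.38 in controls and 6.40, 6.85 and 6.87 in CFD livers. All CFD livers lay at least 3.40 above all controls. Spp1 rose 15.9-fold (95% interval 11.3 to 22.5, log2 difference 3.99 ± 0.21 SE, limma adjusted p = 9.16e-05), and its difference exceeded that of 99.1% of tested probes. Within slides the difference was 3.40, 4.09 and 4.49, and the limma adjusted p with slide as a block was 0.00179.

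**Figure D2:**
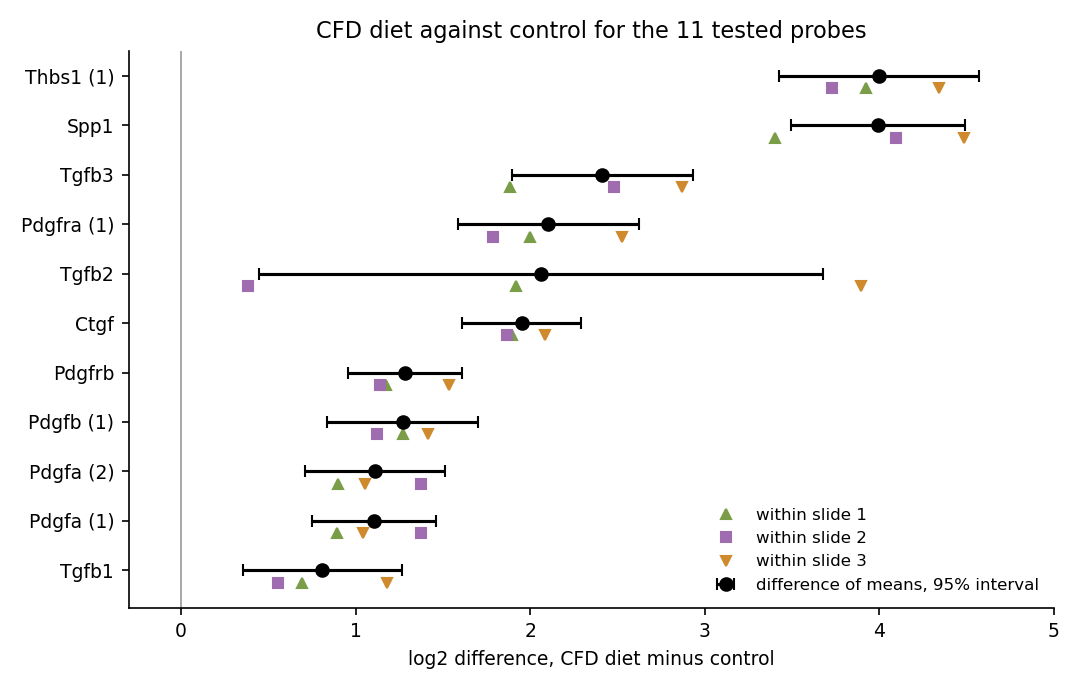
Log2 difference of CFD and control livers (x axis) for the 11 tested probes (y axis), as the difference of group means with its 95% interval (black) and as the difference within each slide (coloured marks). All marks lie above 0, Tgfb2 has the widest interval and its slides range from 0.38 to 3.90, and the Thbs1 value is a fitted difference against controls not well above background.

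The surrounding machinery of TGF-beta was read from 5 lists of other genes, with 1 probe per gene, its brightest tested one. Among all 15909 genes tested in this way, 23.7% were higher and 27.4% lower, with a median log2 difference of -0.11. Of 22 listed genes for storage, activation and reception of TGF-beta, 20 were tested, 14 rose and 2 fell, with a median of 1.15. Ltbp2 and Ltbp3, of the latent TGF-beta binding protein family, rose by 3.90 ± 0.25 and 2.29 ± 0.23 on the log2 scale (SE, limma adjusted p = 0.000129 and 0.000556). Ltbp2 was listed by its family name, and whether its protein binds TGF-beta was not tested. Plg, the gene of plasminogen, which hepatocytes make, fell by 1.48, and Furin, a proprotein convertase that cleaves the TGF-beta precursor, fell by 0.39 (limma adjusted p = 0.00238 and 0.0252). Not well above background on any control array were Itgb6, Lox and Plau. Itgb6 is the beta chain of an integrin that activates TGF-beta, Lox crosslinks collagen, and Plau is the urokinase that activates plasminogen. With control values raised to the floor used for Thbs1, they were 3.93-, 5.15- and 3.39-fold higher. The type I receptor Tgfbr1 rose by 0.45 (limma adjusted p = 0.0337), while the type II receptor Tgfbr2 gave -0.28 and was not called (limma adjusted p = 0.167). The count of genes that fell was 1 without any 1 control or without CFD 3. Over all 23482 probes, lower calls also dropped in these settings, from 6476 to between 4162 and 5177.

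Of 20 SMAD transducers and inhibitors, all tested, 9 rose and 4 fell, with a median of 0.46. The 9 were Ski, Skil, Tgif1, Bambi, Pmepa1, Fkbp1a, Dcn, Bgn and Spsb1, and none of the listed SMAD genes was among them. Dcn, the gene of decorin, a proteoglycan that binds TGF-beta, and Skil, a SMAD corepressor, rose by 1.28 ± 0.12 and 1.25 ± 0.22 on the log2 scale (SE, limma adjusted p = 0.00048 and 0.00441). Zfyve9, the SMAD anchor SARA, fell by 1.01, and Smurf1, a ubiquitin ligase acting on SMADs and receptors, fell by 0.57 (limma adjusted p = 0.0164 and 0.00916). Smad4, the shared partner of receptor SMADs, fell by 0.36, whereas Smad2, Smad3 and Smad7 were not called, with 0.16, -0.54 and 0.18. Only 2 of this list fell without control 1, control 3 or CFD 3, against 4 with all samples. Over all 23482 probes, lower calls also dropped, from 6476 to 4981, 4162 and 4299 in these settings.

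Of 25 genes that TGF-beta induces in fibrogenic cells, 21 were tested, 17 rose and 2 fell, with a median of 1.61. The fibrillar collagen genes Col1a1 and Col5a2 rose by 3.64 ± 0.25 and 3.26 ± 0.24 (SE, limma adjusted p = 0.000149 and 0.000193). Fn1, fibronectin, which hepatocytes also secrete into plasma, fell by 0.80, and Cdh2, N-cadherin, which hepatocytes carry, fell by 0.69 (limma adjusted p = 0.00279 and 0.0048). Vcan, Adam12, Fap and Cthrc1 were not tested.

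Of 23 other PDGF ligands, relatives and signal effectors, all tested, 7 rose, 7 fell and 9 were not called, with a median of -0.07, shares near the 23.7% higher and 27.4% lower of all genes. The 14 intracellular effectors gave 1 higher, 4 lower and 9 not called. The other 9 genes gave 6 higher (Pdgfc, Pdgfd, Pdgfrl, Plat, Csf1r and Flt3) and 3 lower (Nrp1, Kit and Lrp1). Csf1r, Flt3 and Kit are listed as relatives and are not PDGF receptors, and Csf1r is also in the macrophage list below. This split was made with the calls known. Pdgfc and Pdgfd, the other ligands, rose by 1.36 and 1.70, and Plat, the protease that can activate PDGF-CC, and Src, a kinase recruited by PDGF receptors, rose by 4.43 ± 0.18 and 2.45 ± 0.16 (SE, limma adjusted p = 5.53e-05 and 0.000133). Nrp1, a coreceptor, fell by 1.14, and Plcg1, a phospholipase that docks on PDGF receptors, fell by 1.01 (limma adjusted p = 0.00503 and 0.00158). Counts in this list depended on the settings. They were 6 higher and 3 lower after the normexp correction, 4 and 7 after median scaling, and 5 and 3 without control 3. Over all probes the same settings gave 3676 and 4752, 3984 and 8866, and 4243 and 4162, against 5193 and 6476 in the main fit.

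Of 22 receptors and relatives of osteopontin, thrombospondin 1 and CTGF, including matrix metalloproteinases, 20 were tested, 14 rose and 1 fell, with a median of 1.71. Thbs4 and Mmp3 were not well above background in any control. With their control values raised to the floor used for Thbs1, the median was 1.16. The thrombospondins Thbs3 and Thbs2 rose by 2.26 ± 0.17 and 2.10 ± 0.20 (SE, limma adjusted p = 0.000209 and 0.000441), and Cd44, an osteopontin receptor, rose by 1.91. Sdc4, a heparan sulfate proteoglycan, fell by 1.12 (limma adjusted p = 0.00763). When probes had to be above background on all 6 arrays, 7 of 13 genes in this list rose, and 9 of 15 in the storage and activation list. Under that filter, 3800 of all 20926 probes were called higher. The lists share Thbs2 and Cyr61, so they are not separate counts.

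**Figure D3:**
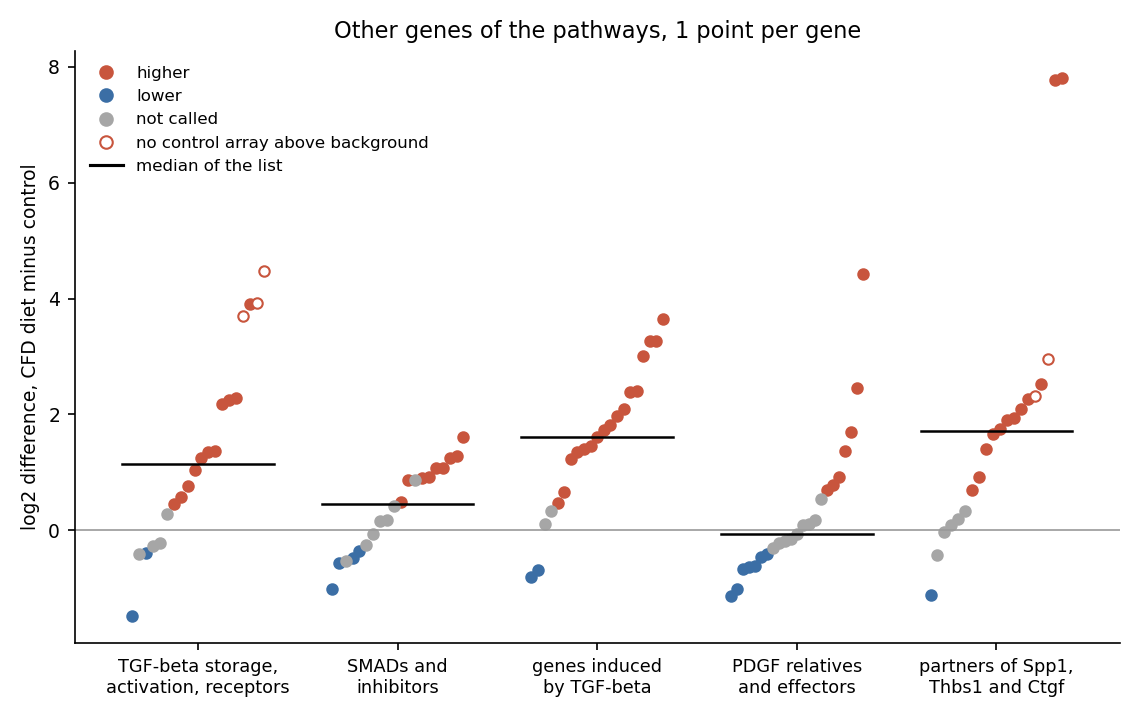
Log2 difference of CFD and control livers (y axis) for every tested gene of the 5 lists (x axis), 1 point per gene, red where higher, blue where lower and grey where not called, with the list median as a bar and open points for genes not well above background on any control array. The list medians are 1.15, 0.46, 1.61, -0.07 and 1.71, against -0.11 over all tested genes.

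Markers of several liver cell types moved with the 10 genes. Their counts stand beside 23.7% higher and 27.4% lower among all tested genes. In whole liver, a change in the number of cells of a type and a change in RNA per cell cannot be told apart. Of 8 hepatocyte markers, listed to check the tissue label, 7 were tested and all 7 were well above background on every array. Of these, 4 fell and 0 rose, with summed signals (relative to the 75th percentile) of 1916 to 2333 in controls and 1152 to 1939 in CFD livers. Of 9 stellate or myofibroblast markers, 8 rose and 0 fell, and their sum went from 14.1 to 15.7 in controls to 32.1 to 39.2 in CFD livers. The sum is weighted to the brightest genes, in CFD livers Vim, and the median log2 difference of the list was 0.84. Col1a1 and Acta2 stand in both this list and that of genes induced by TGF-beta. Of 8 macrophage markers, 7 rose and Clec4f, a Kupffer cell lectin, fell. The macrophage sum went from 108.7 to 146.1 in controls to 377.4 to 515.3 in CFD livers. It too is weighted to the brightest genes, in CFD livers Lyz2, and the median log2 difference of the list was 2.39.

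Of 8 cholangiocyte markers, 7 rose and 0 fell, and the sum went from between 1.00 and 1.58 in controls to between 4.69 and 6.88 in CFD livers. In this list Cftr was not well above background on any control array, and Epcam and Muc1 were above it on 1 of 3. Of 5 tested platelet or megakaryocyte markers, Pf4 rose by 3.00, Ppbp fell by 1.16 and 3 were not called, near the shares of all genes. Their sum went from between 0.832 and 1.22 in controls to between 4.02 and 4.77 in CFD livers, of which Pf4 alone gave 3.68 to 4.29, and the other 4 markers summed to 0.345 to 0.634 in controls and 0.341 to 0.504 in CFD livers, with overlap. Endothelial markers gave 1 higher and 4 lower of 8, with sums of 37.5 to 41.1 in controls and 23.95 to 31.3 in CFD livers. Lymphocyte markers gave 0 higher and 1 lower of 7, both below the shares of all genes. Lymphocyte sums were 1.02 to 1.42 in controls and 0.804 to 1.13 in CFD livers. The part of these cell types in the differences of the 10 genes was not tested.

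**Figure D4:**
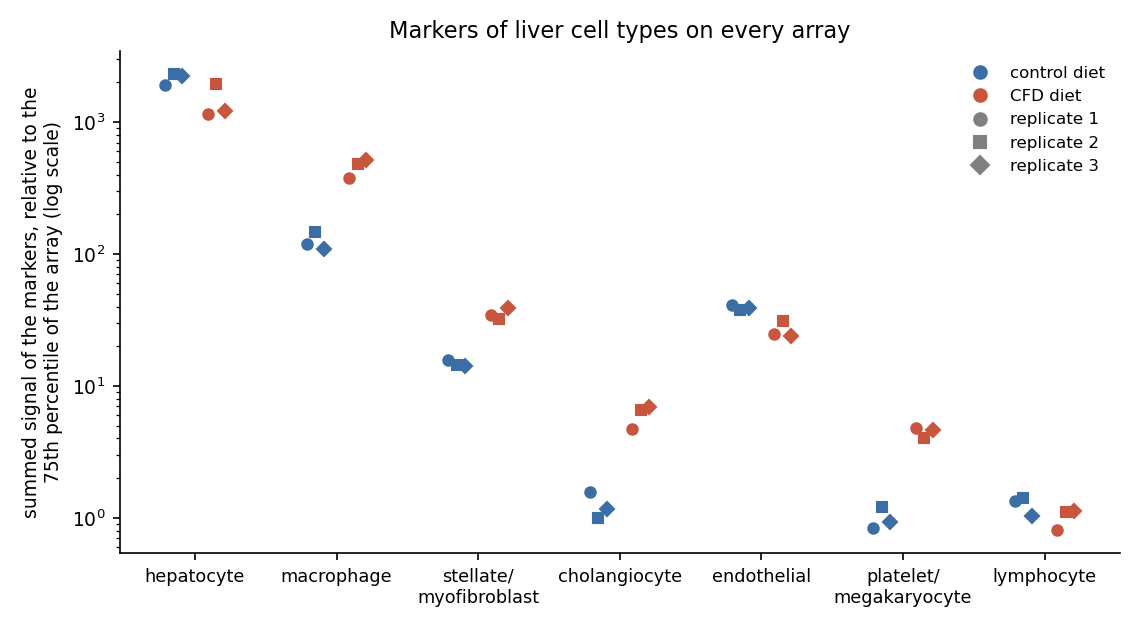
Summed signal of the tested markers of each cell type (x axis) on each of the 6 arrays, relative to the 75th percentile of the array, on a log scale (y axis). Macrophage, stellate and cholangiocyte sums lie higher in all 3 CFD livers than in all 3 controls, the platelet sum does so through Pf4 alone, endothelial sums lie lower, and hepatocyte and lymphocyte sums overlap between groups.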

How the data were processed

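Liver RNA of 3 control and 3 CFD diet samples was read on single-colour arrays, and groups came from the labels. The deposited scanner files hold an intensity per spot, background-subtracted by Feature Extraction, version 10.5.1.1 per the file headers and 10.7 per the submitters' processing notes. The authors' deposited value table holds linear intensity, with its replicates numbered differently from the scanner files within each group, and served only as an alternative. Its column medians were 68, 61.5 and 67.6 for controls and 72.7, 73.9 and 80.6 for CFD livers, its values are not centred, and which numbering is intended is unknown. By rank each column correlated at 1 with another replicate of its own group.

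Control and outlier spots were left out. Processed signals were converted to log2, each array's 75th percentile was subtracted and replicate spots were averaged. Tests ran on 23482 of 41174 probes, those well above background on every one of the 3 arrays of a group. Groups were compared with limma 3.58.1 (lmFit and eBayes, R 4.3.3), with Benjamini-Hochberg adjustment over all tested probes and calls at an adjusted p below 0.05, and for the lists over 15909 genes. The fitting code was tested on simulated data of 23419 probes. It recovered 42 of 100 log2 changes of 1 and 81 of 100 of 2, with 7 false calls. Far fewer probes were changed there than were called in the data, so these shares need not carry over. A gene not called may still differ. The number of arrays limits the precision.

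Described are all members and, in each list, the 2 largest rises and 2 largest falls among called genes above background on all 6 arrays, and other list genes were named after their values were seen. Members and lists were chosen with earlier results of these data known. Current gene names were taken from a RefSeq table where it held the accession or symbol. Alternatives were normexp background correction, median scaling, quantile normalization, no filter or a stricter filter on dim probes, a trend in the variance, the slide as a block, the value table, the mean of a gene's probes, and leaving out each array. The values of 1 listed marker gene are not reported singly here. Exon positions of the probes on build mm7 were not analysed here. Same-numbered samples were checked for deviating together, with correlations of 0.099, -0.081 and -0.001 on slides 1 to 3.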

Additional observations from a re-analysis of the deposited data

How the results depend on the processing

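Of 161 alternative values for single members, 150 kept their direction and their side of the threshold, 11 lost the call and 0 reversed. Many of these values could not reverse. The filters, the trend in the variance and the slide block leave the log2 difference as it was and can change only its p-value. The mean of a gene's probes repeats the main value where 1 probe was tested. Of the 11 lost calls, 9 were for Tgfb2, including the quantile normalization (limma adjusted p = 0.0533), the normexp correction (log2 difference 0.64, limma adjusted p = 0.0745) and no filter on dim probes (0.118). Tgfb1 lost its call without the filter (0.0546) and Pdgfb with normexp. The count of member probes called higher lay between 8 and 11, the 8 where all 6 arrays had to be above background, which left Tgfb2, Pdgfb and Thbs1 untested. With the replicate block (slide), 10 were called, and as the numbers share only a slide and a scan the block is an alternative. Storage and activation genes gave 1 lower with quantile normalization, no filter or the replicate block, and 1 to 2 when a sample was left out, and 9 higher when all 6 arrays had to be above background. SMAD genes gave 1 lower with no filter and 2 to 5 when a sample was left out. Genes induced by TGF-beta gave 1 lower with quantile normalization. PDGF relatives gave 3 lower with normexp, 4 higher with median scaling, 4 higher and 3 lower with no filter, and 3 to 7 lower when a sample was left out, the 3 without control 3. Partners of osteopontin gave 7 higher when all 6 arrays had to be above background. Calls over all probes moved with the settings too. No filter gave 4105 higher and 3661 lower of 41174, and all 6 arrays above background 3800 and 6445 of 20926. Leaving out a sample gave 4167 to 5512 higher and 4162 to 7034 lower of 23482. Among dim probes outside the test, the second Pdgfra probe differed by 1.64 and the second Pdgfb probe by 0.60 without the filter (limma adjusted p = 0.0289 and 0.552). Signals near background limit Tgfb2, Pdgfb and Thbs1 most. Spots of 1 array varied by 2.17% to 9.82% on the probes with 10 spots.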

Other observations

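The gene outside the set whose log2 values correlated most with Spp1 was Ak1 (Pearson r = 0.9998 over 6 arrays), with Tgfb3 it was Mob3a (0.9997), with Ctgf Jam3 (0.9995), with Pdgfra Lama5 (0.9994), with Pdgfrb Twf2 (0.9991), with Pdgfa Them6 (0.999), with Thbs1 Haus8 (0.9997), with Pdgfb Rrm1 (0.9985), with Tgfb1 Efhd2 (0.9994) and with Tgfb2 Lcorl (0.9933). These values describe 6 points in a pair of diet groups, and the difference between groups alone gives a high r. For Spp1, 1947 of 15861 genes exceeded r = 0.95, for Tgfb1 485 and for Tgfb2 28.

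The matrix metalloproteinase genes Mmp7 and Mmp12, whose enzymes can cleave osteopontin, had fitted log2 differences of 7.81 and 7.78 (limma adjusted p = 0.000564 and 0.000168). Only 1 of 3 controls was well above background for each, so these fitted values are no bound. Within slides 1 to 3 the differences were 5.40, 8.85 and 9.18 for Mmp7 and 6.48, 8.23 and 8.62 for Mmp12. Both genes were picked after their values were seen.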
